A study of Homo sapiens with 3 samples.

Results

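Potassium channel subunits were taken as the genes whose symbol starts with KCN, read from 173 probe sets that carried 1 gene symbol. The probe sets represented 87 genes, of 19775 genes and 41091 probe sets with 1 symbol on the array. KCNJ10 and antisense transcripts with a hyphen in their name were not counted among them. The choice went by symbol and used no measured value, though earlier results of these data were known when it was made. The family was divided by the letters after KCN into voltage-gated pore subunits (25 genes), electrically silent voltage-gated subunits (10), voltage-gated auxiliary subunits (12), inward rectifiers (12), tandem-pore channels (14) and channels opened by calcium or sodium (11). The remaining 3 genes start with KCN but are not channel subunits: the noncoding KCNQ1OT1 and KCNQ1DN, and KCNRG, a regulator of channel assembly.

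The cultures were derived from H9, an established human embryonic stem cell line, and each of the 3 was measured on 1 expression array. RA astrocytes were taken at day 210 after retinoic acid from day 10 to day 21. FGF8 astrocytes were taken at day 210 after FGF8 over the same days. Neuroepithelial cells, an early neural progenitor, were taken at day 17 and received no morphogen. With 1 array per group no difference has a replicate check or a test, and the precision is limited by that number. Each value below is a quantile-normalized signal of 1 probe set, which can be compared between arrays but not between genes. Signals at or below the median of all probe sets, 26.4, were treated as at the floor. A fold against an array at the floor is a lower bound, and genes are called higher or lower at 2-fold or more.

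Potassium channels let potassium leave or enter the cell along its electrochemical gradient and set the membrane potential. Voltage-gated channels open on depolarization, shape action potentials in neurons and are present at lower density in many glia. Inward rectifiers and tandem-pore channels carry the resting potassium conductance, which in mature astrocytes is large and serves potassium buffering. Auxiliary subunits do not form the pore but change how channels gate and reach the membrane.

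The array labels were set against marker lists. All 10 astrocyte markers lay above the floor on both astrocyte arrays, and 7 did so in neuroepithelial cells. Against neuroepithelial cells 8 were higher in RA astrocytes (18.1% of all genes) and 8 in FGF8 astrocytes (12.8%). ALDH1L1 (45.5, 43.4 and 38.0 in RA astrocytes, FGF8 astrocytes and neuroepithelial cells) and GJA1 (8916, 7922 and 6907) lay within 2-fold. GFAP had 14574 in RA astrocytes and 3053 in FGF8 astrocytes and was below the floor in neuroepithelial cells. All 10 neuroepithelial markers lay above the floor on the neuroepithelial array, and 7 did so on each astrocyte array. Against neuroepithelial cells 9 of the 10 were lower in RA astrocytes (14.6% of all genes) and 8 in FGF8 astrocytes (10.2%), with 0 higher in either. Of 13 neuronal markers 10 were above the floor in RA astrocytes, 9 in FGF8 astrocytes and 12 in neuroepithelial cells, with summed signals of 15178, 24632 and 18148. Of these markers, 2 of 13 compared were higher and 6 lower in RA astrocytes than in neuroepithelial cells (18.1% and 14.6% over all genes). In FGF8 astrocytes 4 of 12 compared were higher and 3 lower (12.8% and 10.2%). DCX, a protein of migrating neurons, had 583 in RA astrocytes, 6738 in FGF8 astrocytes and 2058 in neuroepithelial cells. STMN2, also on the list, had 153 in RA astrocytes and 2238 in neuroepithelial cells and was at the floor in FGF8 astrocytes. RBFOX3, a marker of mature neurons, was at the floor on both astrocyte arrays. The 9 oligodendrocyte lineage markers analysed summed to 1127, 6465 and 414 on the same 3 arrays, most of it PDGFRA (794, 5997 and 173). MOG and MAG were at the floor on all arrays, and SOX10 was at the floor in both astrocyte cultures. The ratio of 3' to 5' signal for ACTB, which goes up when RNA is shortened, was 6.67 in RA astrocytes, 6.63 in FGF8 astrocytes and 1.33 in neuroepithelial cells. For GAPDH it was 1.79, 1.65 and 0.98 on the same arrays. Spiked-in transcripts were 2.62-fold brighter on the RA array than on the neuroepithelial array and 2.40-fold brighter than on the FGF8 array. The FGF8 array was 1.09-fold brighter in them than the neuroepithelial array. The part of these differences in the results below was not tested. In RNA of a whole culture, fewer cells of a type and less RNA per cell cannot be told apart.

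Much of the family was not measurable. Of the 87 genes, 43 lay at the floor on all 3 arrays, and 12 lay above it on all 3. Above the floor were 25 genes in RA astrocytes (28.7%), 24 in FGF8 astrocytes (27.6%) and 29 in neuroepithelial cells (33.3%). Over all genes on the array the shares were 61.1%, 59.9% and 60.4%. The 43 genes at the floor throughout were 13 voltage-gated pore, 5 silent, 7 auxiliary, 4 inward rectifier, 8 tandem-pore and 5 calcium- or sodium-activated genes and KCNQ1DN. The floor is a setting, not a detection limit, so a gene below it may still be expressed.

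The subfamilies differed in how many members could be measured. All 7 KCNA genes analysed, which encode the Kv1 pore subunits of axons, and all 5 KCNE genes, small single-span auxiliary subunits, were at the floor on every array. A second probe set of KCNE1 was the exception, with a signal of 44.9 in RA astrocytes. The 3 KCND genes and the 3 KCNQ genes analysed each reached above the floor on at least 1 array. Of 14 tandem-pore genes 6 did so, with 1 above the floor in RA astrocytes, 3 in FGF8 astrocytes and 3 in neuroepithelial cells. Of 12 inward rectifiers 6 were above the floor in RA astrocytes, 2 in FGF8 astrocytes and 6 in neuroepithelial cells.

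**Figure D1:**
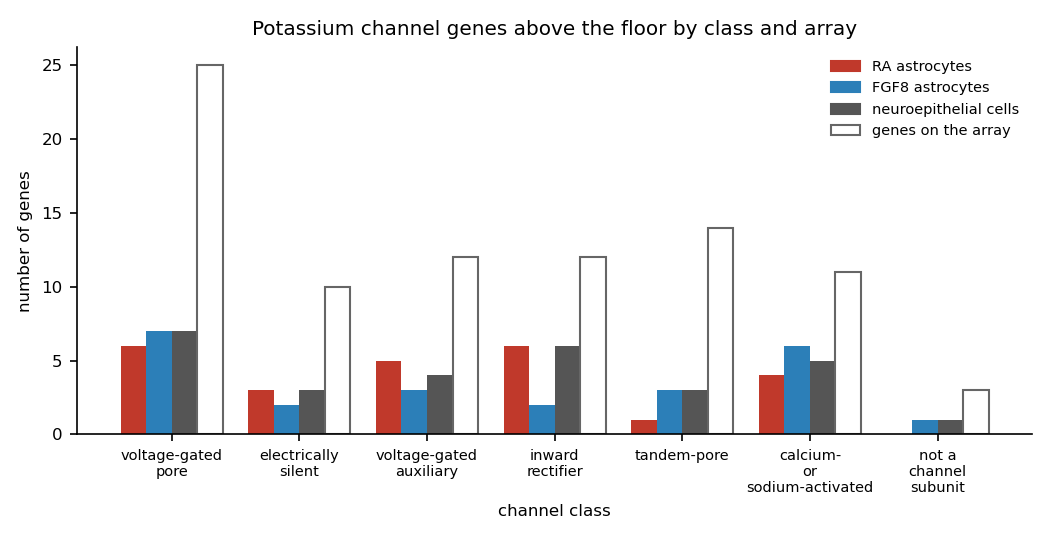
Number of potassium channel genes above the floor in each channel class (horizontal axis) on each array, beside the number of genes of that class on the array (open bars); the vertical axis counts genes. The inward rectifiers have 6, 2 and 6 genes above the floor in RA astrocytes, FGF8 astrocytes and neuroepithelial cells, and the voltage-gated pore class has 6, 7 and 7 of 25.

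The first comparison sets RA astrocytes, specified by a caudalising morphogen, against neuroepithelial cells and asks how channel genes differ between astrocytes and the early progenitor. Of 10 genes higher in RA astrocytes, 5 encode pore or KChIP subunits of Kv4, the channel of the fast A-type potassium current, led by KCND3 (at least 74.6-fold) and KCNIP4 (70.5-fold). The others were KCNH2, KCNF1, KCNJ6, KCNJ8 and KCNN3. The 9 lower genes were KCNC1, KCNG1, KCNS3, KCNJ4, KCNJ13, KCNK10, KCNK5, KCNMA1 and KCNQ1OT1, by 2.01-fold to 6.25-fold or more. In this pair of arrays 49 of the 87 genes were at the floor in both cultures and 38 could be compared. Of these 10 were at least 2-fold higher in RA astrocytes (26.3%), against 18.1% of 13339 genes compared over the whole array. Another 9 were at least 2-fold lower (23.7%), against 14.6% of all genes. The median log2 difference was 0.0045 over the channel genes and 0.07 over all genes. Only 16 of the 38 were above the floor on both arrays, 6 of them higher and 3 lower; the other 22 had 1 side at the floor, which fixes their direction.

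The second comparison puts the same question to FGF8 astrocytes, and it uses the same neuroepithelial array as the first. The 7 genes higher in FGF8 astrocytes were KCND3, KCND2, KCNIP4, KCNIP2, KCNJ8, KCNN3 and KCNQ5. The 10 lower genes were KCNC1, KCNQ3, KCNG1, KCNS3, KCNAB2, KCNJ13, KCNK10, KCNK5, KCNMA1 and KCNQ1OT1. Of the 87 genes 48 were at the floor in both cultures and 39 could be compared. Of these 7 were at least 2-fold higher in FGF8 astrocytes (17.9%), against 12.8% of 13004 genes compared over the whole array, and 10 were at least 2-fold lower (25.6%), against 10.2%. The median log2 difference was 0.00091 over the channel genes and 0.05 over all genes. Above the floor on both arrays were 14 genes, 4 higher and 3 lower.

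**Figure D2:**
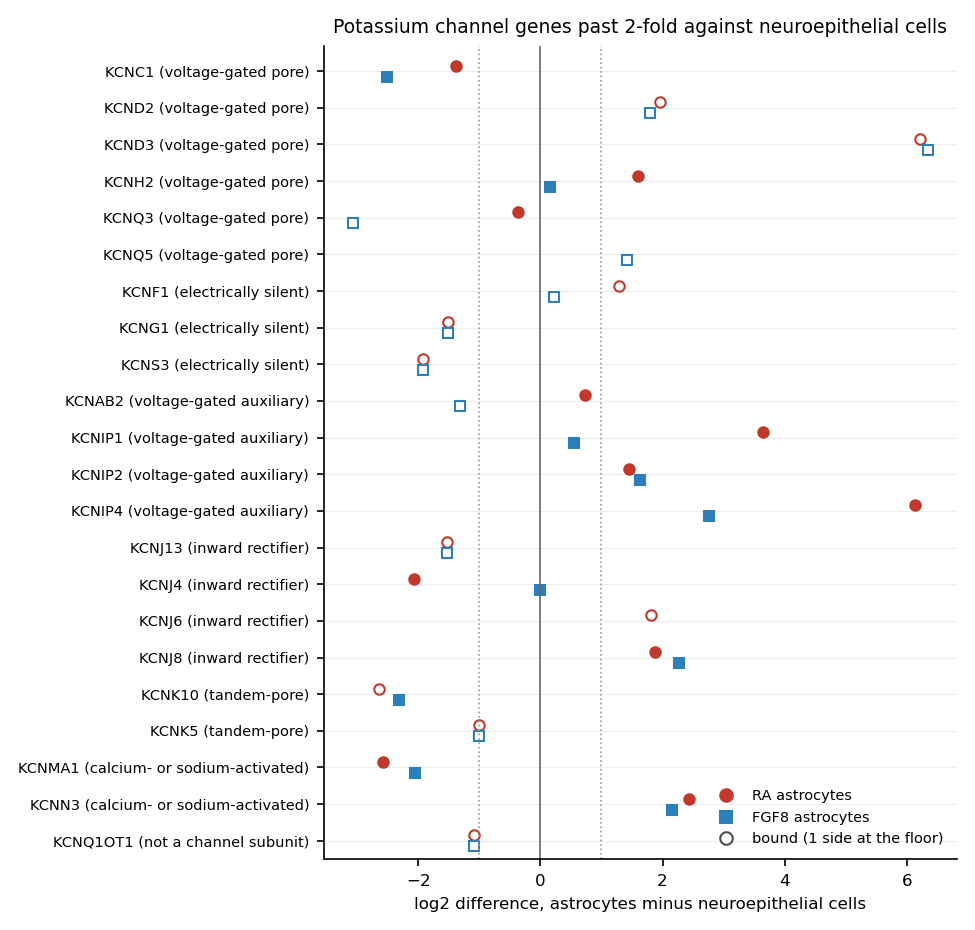
Log2 difference (horizontal axis) of each potassium channel gene that passed 2-fold in either astrocyte array against neuroepithelial cells, with RA astrocytes as circles and FGF8 astrocytes as squares; open symbols are lower bounds with 1 side at the floor, dotted lines mark 2-fold, and no symbol is drawn where both sides were at the floor. KCND3 lies past 6 for both astrocyte arrays, while KCNIP4 reaches 6.14 in RA and 2.77 in FGF8 astrocytes.

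Kv4 pore subunits were above the floor in astrocytes and at it in neuroepithelial cells. KCND3, a Kv4 pore subunit of brain and heart, had a signal of 1968 in RA astrocytes and 2150 in FGF8 astrocytes, against a value at the floor in neuroepithelial cells. That made it at least 74.6-fold higher in RA astrocytes and at least 81.5-fold higher in FGF8 astrocytes than in neuroepithelial cells, and 1.09-fold apart between the astrocyte arrays. Another of its probe sets gave 528 in RA and 442 in FGF8 astrocytes and was also at the floor in neuroepithelial cells, at least 20.0-fold and at least 16.7-fold higher. Its remaining 2 probe sets were at the floor on all 3 arrays, and averaging all of its probe sets gave log2 differences of 2.02 for RA and 1.69 for FGF8 astrocytes against neuroepithelial cells. KCND2, the Kv4 subunit of neuronal dendrites, had 103 in RA astrocytes and 91.9 in FGF8 astrocytes and was at the floor in neuroepithelial cells, at least 3.90-fold and at least 3.49-fold higher. KCND2 has 1 probe set, and neither call held with a floor at the 70th percentile. The RA difference was then 0.11 on the log2 scale, and FGF8 astrocytes were at that floor as well. Both astrocyte arrays lay above the neuroepithelial one for both genes, and close to each other. KCND1, the other member, reached 26.5 in FGF8 astrocytes, just above the floor, and was at the floor on the other arrays.

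Of the KChIP auxiliary genes, KCNIP4 and KCNIP1 differed between the astrocyte cultures, KCNIP2 lay within 2-fold between them and KCNIP3 was at the floor. KCNIP4, a calcium-binding KChIP subunit that binds the Kv4 amino terminus, had 3008 in RA astrocytes, 291 in FGF8 astrocytes and 42.7 in neuroepithelial cells. It was 70.5-fold higher in RA and 6.81-fold higher in FGF8 astrocytes than in neuroepithelial cells, and 10.3-fold higher in RA than in FGF8 astrocytes. Its other probe set above the floor ran the same way, at 630, 79.9 and below the floor. KCNIP1, a KChIP of GABAergic interneurons among other cells, had 458 in RA astrocytes, 53.8 in FGF8 astrocytes and 36.8 in neuroepithelial cells. Its difference from neuroepithelial cells was 12.5-fold in RA and 1.46-fold in FGF8 astrocytes, and RA exceeded FGF8 astrocytes 8.51-fold. KCNIP2, the KChIP best known from the heart, had 80.2, 91.4 and 29.4 on the 3 arrays, 2.73-fold higher in RA and 3.11-fold higher in FGF8 astrocytes than in neuroepithelial cells. Another KCNIP2 probe set barely passed the floor in FGF8 astrocytes and gave no call. GAD1, an enzyme of GABA synthesis, had 276 in RA astrocytes, 3647 in FGF8 astrocytes and 51.9 in neuroepithelial cells, and SYT1, a synaptic vesicle protein, had 2060, 405 and 631. Their part in the KChIP differences was not tested.

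The dipeptidyl-peptidase-like partners of Kv4, which are not KCN genes, were measured on all 3 arrays. DPP6 had 1794 in RA astrocytes, 199 in FGF8 astrocytes and 84.8 in neuroepithelial cells, 21.2-fold and 2.34-fold higher than in neuroepithelial cells. DPP10 had 353, 719 and 199 on the same arrays, 3.61-fold higher in FGF8 astrocytes and 1.77-fold higher in RA astrocytes. DPP6 was therefore 9.03-fold higher, and DPP10 2.03-fold lower, in RA than in FGF8 astrocytes. KCNIP4, KCNIP1 and DPP6 thus parted the astrocyte cultures by more than 2-fold with RA on top, whereas KCND3, KCND2 and KCNIP2 lay within 2-fold between them and DPP10 was higher in FGF8 astrocytes.

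**Figure D3:**
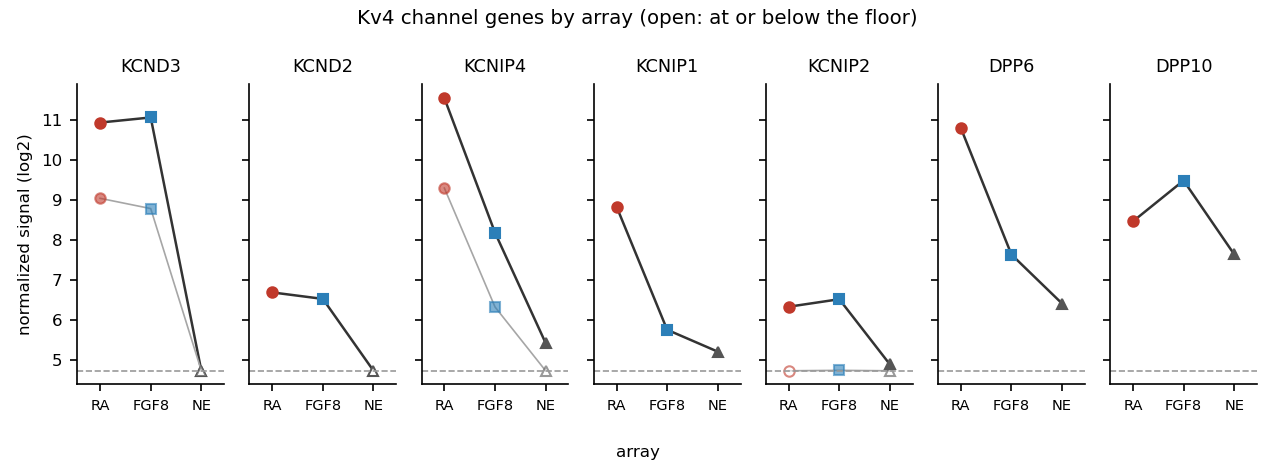
Normalized log2 signal (vertical axis) of Kv4 pore genes, KChIP genes and DPP partners on the RA astrocyte, FGF8 astrocyte and neuroepithelial arrays; dark lines join the values of the gene's main probe set, pale lines those of its other probe sets above the floor (KCN genes only), and open symbols lie at or below the floor (dashed). KCND3 is level between the astrocyte arrays, while KCNIP4, KCNIP1 and DPP6 step down at each array from left to right.

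Promoter windows of 300 bases, from 250 bases before to 50 after the annotated start, are printed for KCND3 and for the KChIP genes that parted the astrocyte arrays, with KCNK10 as a gene lower in both astrocyte cultures. They come from RefSeq on GRCh38.p14, where 67 of the 87 genes matched an entry, and capitals mark GC boxes (GGGCGG on either strand). KCND3 lies on the minus strand at chr1:111989619-111989918, KCNIP4 on the minus strand at chr4:21948723-21949022, KCNIP1 on the plus strand at chr5:170353237-170353536 and KCNK10 on the minus strand at chr14:88326863-88327162. Each gene has 1 window here, and other transcripts may start elsewhere.
KCND3: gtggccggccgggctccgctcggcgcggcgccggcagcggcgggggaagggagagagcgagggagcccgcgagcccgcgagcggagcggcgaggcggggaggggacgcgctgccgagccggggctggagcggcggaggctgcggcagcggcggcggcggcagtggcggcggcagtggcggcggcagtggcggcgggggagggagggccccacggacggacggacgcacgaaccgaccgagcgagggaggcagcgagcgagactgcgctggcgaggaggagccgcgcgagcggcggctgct
KCNIP4: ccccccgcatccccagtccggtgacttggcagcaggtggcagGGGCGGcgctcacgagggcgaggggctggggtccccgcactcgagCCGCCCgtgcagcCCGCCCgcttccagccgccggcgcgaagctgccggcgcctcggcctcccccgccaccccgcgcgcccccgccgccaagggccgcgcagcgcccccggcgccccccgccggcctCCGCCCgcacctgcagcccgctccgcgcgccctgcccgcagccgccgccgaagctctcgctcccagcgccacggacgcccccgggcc
KCNIP1: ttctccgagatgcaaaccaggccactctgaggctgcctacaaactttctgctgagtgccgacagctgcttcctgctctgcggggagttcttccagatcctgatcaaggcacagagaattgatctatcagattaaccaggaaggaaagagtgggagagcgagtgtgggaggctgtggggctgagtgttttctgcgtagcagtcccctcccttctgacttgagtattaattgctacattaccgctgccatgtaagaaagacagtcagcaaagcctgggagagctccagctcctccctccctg
KCNK10: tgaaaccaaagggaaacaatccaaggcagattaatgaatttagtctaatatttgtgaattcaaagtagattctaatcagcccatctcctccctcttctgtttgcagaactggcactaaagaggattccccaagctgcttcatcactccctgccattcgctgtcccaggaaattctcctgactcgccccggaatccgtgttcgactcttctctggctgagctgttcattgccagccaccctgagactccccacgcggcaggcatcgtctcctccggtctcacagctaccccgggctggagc
The windows differ in composition. That of KCND3 is 81.7% G and C with 53 CpG dinucleotides and no GC box, and that of KCNIP4 is 83.3% with 47 CpG and 4 GC boxes. KCNIP1 has 53.0% and 6 CpG, and KCNK10 51.7% and 10 CpG, both with no GC box. Over 27305 promoters the median CpG number was 14, and over the 67 KCN promoters it was 19. A GC box occurred in 62.7% of KCN windows and 44.6% of all windows, a CCAAT box (CCAAT) in 32.8% and 35.7%, a TATA box (TATAAA) in 8.96% and 12%, and the NFI half-site TTGGCA in 11.9% and 12.7%, each searched on both strands and counted regardless of overlap. A match is a description of the letters and not a site.

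Among the other voltage-gated pore genes the arrays gave several directions. KCNC1, a Kv3 subunit of fast-spiking neurons, had 114 in RA astrocytes, 51.8 in FGF8 astrocytes and 297 in neuroepithelial cells. It was 2.60-fold lower in RA and 5.73-fold lower in FGF8 astrocytes than in neuroepithelial cells, and another probe set was at the floor in both astrocyte cultures with 57.0 in neuroepithelial cells. KCNH2, the hERG channel of the cardiac delayed rectifier, had 500 in RA astrocytes, 184 in FGF8 astrocytes and 165 in neuroepithelial cells. RA astrocytes stood above the other arrays, 3.04-fold over neuroepithelial cells, and FGF8 astrocytes 1.12-fold. A second KCNH2 probe set gave 113, 57.8 and 63.2, which is 1.79-fold for RA against neuroepithelial cells and short of 2-fold.

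KCNQ genes carry the M-current, a slow current that holds neurons below firing threshold. KCNQ3 had 173 in RA astrocytes and 222 in neuroepithelial cells but was at the floor in FGF8 astrocytes. It was at least 8.42-fold lower in FGF8 astrocytes and 1.28-fold lower in RA astrocytes than in neuroepithelial cells, although averaging its probe sets gave a log2 difference of -0.71 for FGF8 astrocytes. KCNQ5 had 70.2 in FGF8 astrocytes and was at the floor on the other arrays, at least 2.66-fold higher. Its other probe set was at the floor on all arrays. KCNQ1, the channel of the slow cardiac delayed rectifier, had 42.0 in neuroepithelial cells on its main probe set with the astrocyte arrays at the floor, a bound of 1.59-fold that did not reach 2-fold. Another KCNQ1 probe set ran the other way, with 57.9 in RA astrocytes and both other arrays at the floor, at least 2.20-fold higher. ANK3, which encodes the ankyrin that anchors KCNQ channels at the axon initial segment, had 474 in RA astrocytes, 40.1 in FGF8 astrocytes and 1180 in neuroepithelial cells.

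The 25 voltage-gated pore genes had 10 members compared in RA astrocytes, 3 higher and 1 lower with a median of -0.22. In FGF8 astrocytes 12 were compared, 3 higher and 2 lower with a median of -0.11. The RA median lies between bounds of KCNC4 and KCNH8 near the floor, and its sign depended on the setting. It was 0.24 with a floor at the 30th percentile, 0.11 at the 70th, 0.46 without a floor and 0.08 with averaged probe sets. Over all genes 18.1% were higher and 14.6% lower in RA astrocytes, and 12.8% and 10.2% in FGF8 astrocytes. KCNB2, KCNC4, KCND1, KCNH3 and KCNH8 were above the floor on at least 1 array, with signals up to 34.9, and gave no call; nearly all of their differences are bounds.

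Electrically silent subunits do not conduct alone but join Kv2 pores and alter them. KCNS3 had 99.6 in neuroepithelial cells and was at the floor in both astrocyte cultures, at least 3.78-fold lower in each. KCNG1 had 75.3 in neuroepithelial cells and was likewise at the floor in both, at least 2.86-fold lower. KCNF1 went the other way, with 64.4 in RA astrocytes, 30.9 in FGF8 astrocytes and the floor in neuroepithelial cells, at least 2.44-fold higher in RA astrocytes. KCNS1 was level, at 43.5, 51.3 and 40.4 on the 3 arrays.

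KCNAB2, a cytoplasmic beta subunit of Kv1 channels with an aldo-keto reductase fold, had 109 in RA astrocytes and 65.6 in neuroepithelial cells and was at the floor in FGF8 astrocytes. It was 1.66-fold higher in RA astrocytes and at least 2.49-fold lower in FGF8 astrocytes than in neuroepithelial cells. No Kv1 pore gene analysed was above the floor on any array beside it. CNTNAP2, a cell adhesion molecule that clusters Kv1 channels along axons, had 27.3 in RA astrocytes, 111 in FGF8 astrocytes and 1239 in neuroepithelial cells, 45.4-fold and 11.2-fold lower. The voltage-gated auxiliary class as a whole had 3 of 5 compared genes higher and 0 lower in RA astrocytes with a median of 1.45, and 2 of 4 higher and 1 lower in FGF8 astrocytes with a median of 1.09. The shares over all genes were 18.1% and 14.6% for RA and 12.8% and 10.2% for FGF8 astrocytes.

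Inward rectifiers pass potassium inward more readily than outward and hold cells near the potassium equilibrium potential. KCNJ8, a pore of ATP-sensitive potassium channels found in mural cells and glia, had 126 in RA astrocytes, 165 in FGF8 astrocytes and 34.2 in neuroepithelial cells. It was 3.69-fold and 4.83-fold higher than in neuroepithelial cells, and a second probe set gave 171 and 131 against the floor, at least 6.47-fold and 4.97-fold higher. ABCC9, the sulfonylurea receptor that pairs with it, had 38.9 in RA astrocytes and 52.2 in FGF8 astrocytes and was at the floor in neuroepithelial cells, bounds of at least 1.47-fold and 1.98-fold. The mesenchymal and mural list, which includes PDGFRB and RGS5, had its highest sum in neuroepithelial cells, but not every member did: NOTCH3 had 830 in RA astrocytes, 377 in FGF8 astrocytes and 300.0 in neuroepithelial cells, and ACTA2 had 4087, 217 and 2160. Of its 10 genes 5 were above the floor in RA astrocytes, 5 in FGF8 astrocytes and 10 in neuroepithelial cells, with summed signals of 7089, 1167 and 15855, and 1 was higher and 7 lower in RA and 0 higher and 9 lower in FGF8 astrocytes than in neuroepithelial cells. Their part in the KCNJ8 difference was not tested.

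Among the Kir2 and G protein-gated genes, KCNJ4, KCNJ2 and KCNJ6 passed 2-fold between the astrocyte cultures. The other inward rectifiers compared between them, KCNJ5, KCNJ8 and KCNJ14, were not called. For KCNJ5 and KCNJ14 that rests on bounds just above the floor, and KCNJ9 was at the floor on its main probe set. KCNJ4, a strong Kir2 rectifier, had 29.2 in RA astrocytes, 122 in FGF8 astrocytes and 122 in neuroepithelial cells, so that RA was 4.18-fold below neuroepithelial cells. Averaging its probe sets gave a log2 difference of -0.52 for RA astrocytes, which is short of 2-fold. KCNJ2, another Kir2 rectifier, had 77.0 in RA astrocytes and 47.9 in neuroepithelial cells and was at the floor in FGF8 astrocytes, 1.61-fold higher and at least 1.81-fold lower than neuroepithelial cells. KCNJ6, a channel opened by G protein beta-gamma subunits, had 92.5 in RA astrocytes and was at the floor on the other arrays, at least 3.51-fold higher. A second KCNJ6 probe set gave 48.1 in RA astrocytes alone, a bound of 1.83-fold. KCNJ13, the Kir7 channel of choroid plexus and retinal pigment epithelium, had 76.5 in neuroepithelial cells and was at the floor in both astrocyte cultures, at least 2.90-fold lower, and its second probe set gave at least 1.81-fold. The 7 choroid plexus and ependyma markers did not share 1 direction: they summed to 420 in RA astrocytes, 1411 in FGF8 astrocytes and 4376 in neuroepithelial cells, mostly OTX2 and FOLR1, with 2 of 5 compared genes higher and 3 lower in RA astrocytes, and 0 higher and 2 lower in FGF8 astrocytes. TTR had 335 in neuroepithelial cells and was at the floor in both astrocyte cultures, AQP1 and FOXJ1 were higher in RA astrocytes, and CLIC6 and KL were at the floor on all arrays. Their part in the KCNJ13 difference was not tested. KCNJ10, the astrocyte inward rectifier left out of the family count, had 297 in RA astrocytes and 483 in FGF8 astrocytes and was at the floor in neuroepithelial cells. Of the 12 inward rectifiers 2 of 8 compared were higher and 2 lower in RA astrocytes (18.1% and 14.6% over all genes), and 1 of 6 was higher and 1 lower in FGF8 astrocytes (12.8% and 10.2%).

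Tandem-pore channels carry background potassium current. Of 4 compared in RA astrocytes 0 were higher and 2 lower than in neuroepithelial cells on the main probe set (18.1% and 14.6% over all genes). Of 5 compared in FGF8 astrocytes 0 were higher and 2 lower (12.8% and 10.2% over all genes). KCNK10, a TREK channel opened by stretch and lipids, had 33.2 in FGF8 astrocytes and 165 in neuroepithelial cells and was at the floor in RA astrocytes. It was at least 6.25-fold lower in RA astrocytes and 4.96-fold lower in FGF8 astrocytes than in neuroepithelial cells, and its other probe sets were above the floor in neuroepithelial cells only, at 41.4 and 35.7. Averaging its probe sets gave -1.24 on the log2 scale for each astrocyte culture. KCNK5, an alkaline-activated channel, had 52.9 in neuroepithelial cells and was at the floor in the astrocyte cultures, a bound of 2.01-fold that fell short of 2-fold when arrays were scaled to one median. KCNK1, the weak inward TWIK channel, showed probe sets that disagreed. Its main one had 42.7 in RA astrocytes and the floor elsewhere, and another had 138 in neuroepithelial cells and the floor in both astrocyte cultures, at least 5.23-fold lower. KCNK3 and KCNK17 were above the floor in FGF8 astrocytes alone, at 40.2 and 38.8, with bounds short of 2-fold.

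Calcium- and sodium-activated channels link potassium outflow to the ions that enter during activity, and 6 of their 11 genes were above the floor on at least 1 array. KCNN3, a small-conductance channel opened by calmodulin-bound calcium, had 267 in RA astrocytes, 221 in FGF8 astrocytes and 49.7 in neuroepithelial cells, 5.38-fold and 4.44-fold higher. Its 3 other probe sets above the floor were higher by 2.21-fold to 5.81-fold in RA astrocytes and by 1.96-fold to 4.71-fold in FGF8 astrocytes, 1 of them as bounds. KCNMA1, the pore of the large-conductance BK channel, had 30.3 in RA astrocytes, 43.6 in FGF8 astrocytes and 180 in neuroepithelial cells, 5.94-fold and 4.14-fold lower. Its other probe sets were at the floor on all arrays, so the result rests on 1 probe set. KCNMB4, the BK beta subunit of brain, had 296, 337 and 227 on the 3 arrays and was within 2-fold on its main probe set, while a different one was 2.27-fold and 2.26-fold higher in RA and FGF8 astrocytes. KCNT2, a sodium-activated channel, had 399, 294 and 293, and a second probe set with 88.6, 71.7 and 129 was also within 2-fold. In this class 1 of 5 compared genes was higher and 1 lower in RA astrocytes (18.1% and 14.6% over all genes), and 1 of 6 was higher and 1 lower in FGF8 astrocytes (12.8% and 10.2%).

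KCNQ1OT1, a noncoding antisense RNA of an imprinted domain, had 55.8 in neuroepithelial cells and was at the floor in both astrocyte cultures, at least 2.12-fold lower. Another of its probe sets gave 63.2 in neuroepithelial cells and at least 2.40-fold. In all, 23 of the 87 genes passed 2-fold in at least 1 of the comparisons, and 21 were above the floor on some array without doing so. The 23 are 52.3% of the 44 genes above the floor on some array, against 39.0% of 13738 such genes over the whole array. Averaging the probe sets of KCNAB2, KCNG1, KCNIP2, KCNMA1, KCNQ5 and KCNQ1OT1 put each at the floor on all 3 arrays, so none of their calls could be made from that average. Among these 21, KCNG4, KCNJ5, KCNJ11 and KCNJ14 reached the floor by a small margin, with the highest of their signals at 31.5, of KCNJ14 in neuroepithelial cells. KCNAB1 had 33.1 in RA astrocytes, KCNMB2 30.7 and KCNRG 29.9 in FGF8 astrocytes, and KCNK2 33.1 and KCNN1 39.1 in neuroepithelial cells. None of these was called, and where 1 array is at the floor the difference is a bound that does not place the gene within 2-fold.

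**Figure D4:**
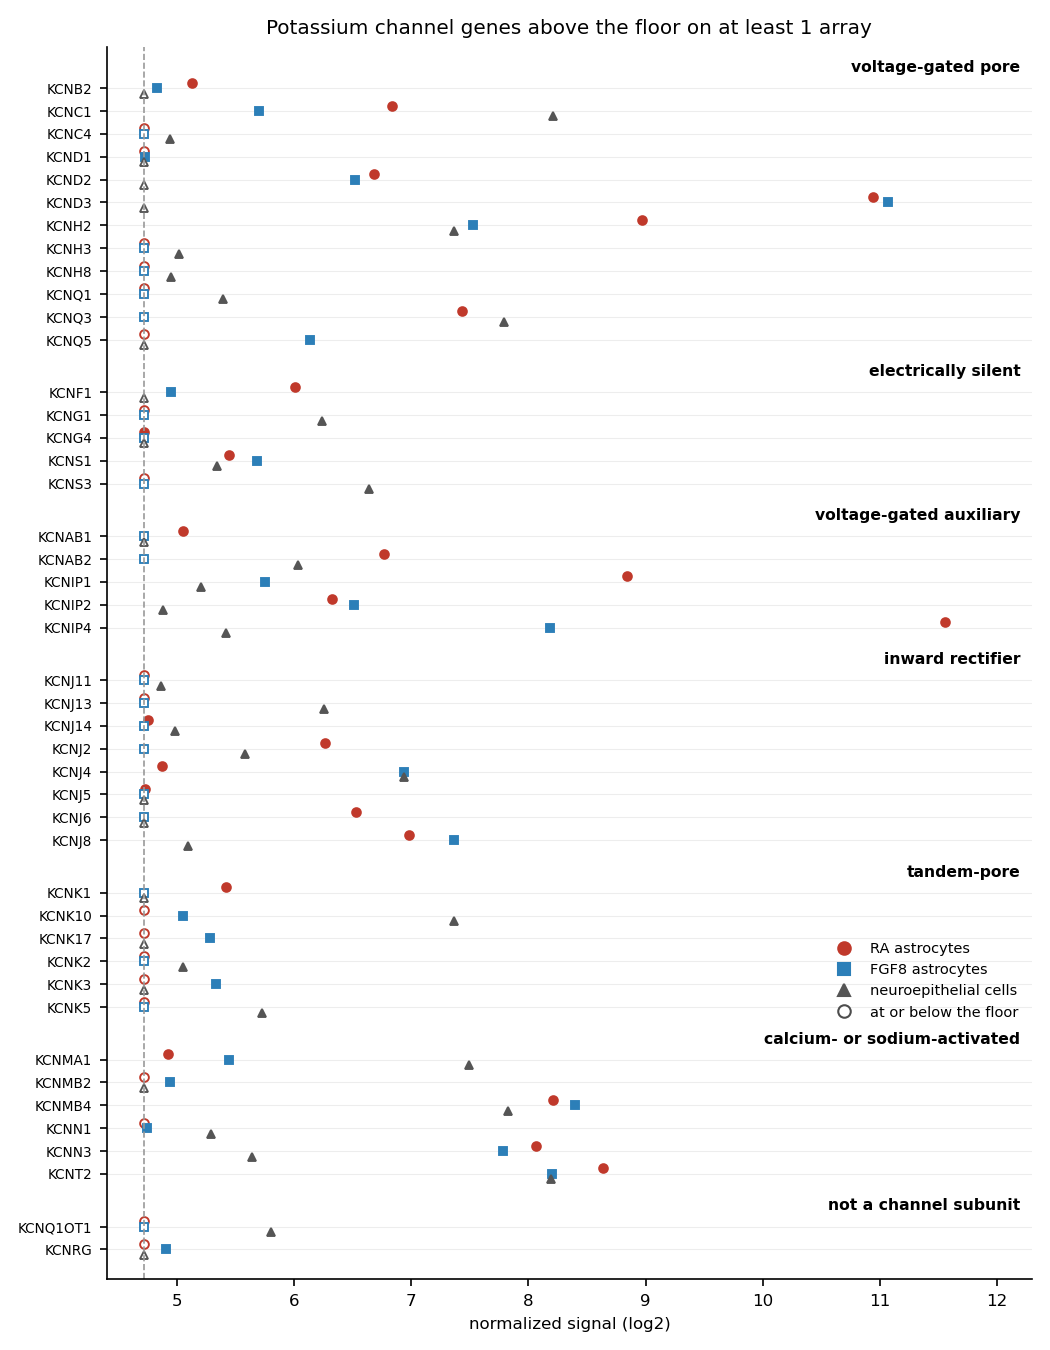
Normalized log2 signal (horizontal axis) of the 44 potassium channel genes above the floor on at least 1 array, by channel class, on the RA astrocyte (circles), FGF8 astrocyte (squares) and neuroepithelial (triangles) arrays; open symbols lie at or below the floor (dashed line), and values compare within a row only. Most genes sit near the floor, and KCND3 and KCNIP4 span the widest range between arrays.

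The third comparison sets RA against FGF8 astrocytes, cultures of one age given different morphogens; both arrays also enter the comparisons above. The KChIP genes KCNIP4 and KCNIP1 were 10.3-fold and 8.51-fold higher in RA astrocytes, and the Kir2 gene KCNJ4 was 4.19-fold lower. Of the 87 genes 54 were at the floor in both cultures and 33 could be compared. Of these 9 were at least 2-fold higher in RA astrocytes (27.3%), against 9.69% of 12958 genes compared over the whole array, and 2 were lower (6.06%), against 7.86%. The median log2 difference was 0.0089 over the channel genes and 0.0098 over all genes. Among the 16 genes above the floor on both arrays 5 were higher and 1 was lower.

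On the log2 scale KCNIP4 and KCNIP1 differed by 3.37 and 3.09. KCNQ3 followed with a bound of at least 6.57-fold, then KCNAB2 with at least 4.12-fold, KCNJ6 with at least 3.51-fold and KCNJ2 with at least 2.92-fold, all with FGF8 astrocytes at the floor. KCNH2 was 2.71-fold higher, KCNC1 2.20-fold and KCNF1 2.09-fold. The second probe set of KCNH2 gave 1.96-fold, and the second of KCNC1 was at the floor on both astrocyte arrays. On the other side stood KCNJ4 and KCNQ5, the second at least 2.66-fold lower in RA astrocytes. The KCNJ4 call was lost when its probe sets were averaged (-0.38) and with a floor at the 70th percentile (-0.36). The KCNC1 call was lost likewise (0.14 and 0.26). The KCNAB2 and KCNQ3 calls were lost with that floor (0.19 and 0.86), and the KCNH2 and KCNJ6 calls without less specific probe sets (0.97 and 0.87). Averaging put KCNAB2, KCNQ3 and KCNQ5 at the floor on both astrocyte arrays, so none gave a call. The 70th percentile floor did the same for KCNF1, KCNJ2, KCNJ6 and KCNQ5. KCND3, KCND2, KCNJ8, KCNMA1, KCNMB4 and KCNT2 lay within 2-fold, with log2 differences between -0.52 and 0.44. KCNN3 had 0.28, but a further probe set of it gave -1.09. None of the 6 calcium- or sodium-activated genes compared passed 2-fold on its main probe set, against 17.5% of all genes. Of these 6 genes 4 were above the floor on both arrays. The 4 tandem-pore genes compared each had 1 side at the floor and a main signal of at most 42.7. That is too near the floor for a bound of 2-fold, so none of them could be called. KCNK10 gave -1.39 with the 30th percentile floor.

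**Figure D5:**
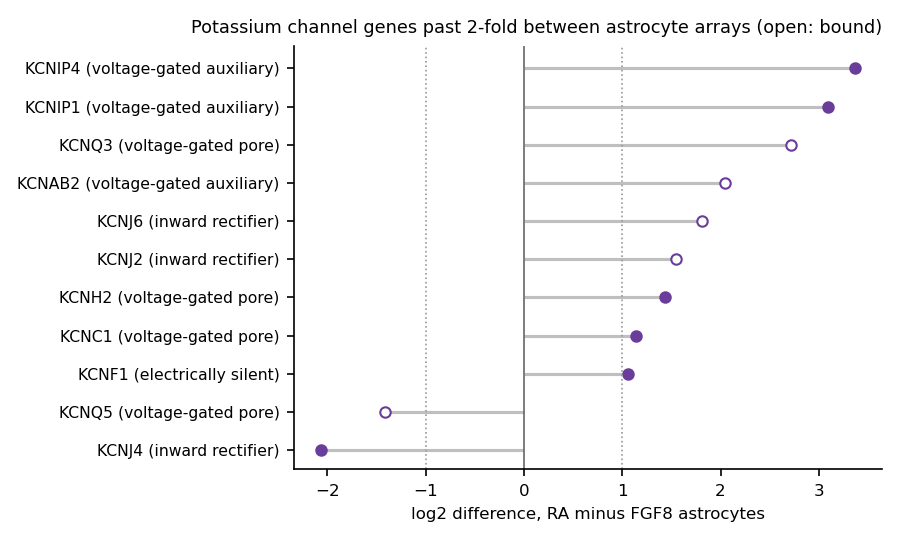
Log2 difference (horizontal axis) of the 11 potassium channel genes that passed 2-fold between RA and FGF8 astrocytes, largest at the top; open symbols are lower bounds with 1 side at the floor and dotted lines mark 2-fold. KCNIP4 and KCNIP1 lie above 3, and KCNQ5 and KCNJ4 are the genes on the low side.

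Genes that work with potassium channels or move potassium were counted as lists. Of 27 channel partner genes 24 were analysed. Of 19 compared in RA astrocytes 4 were higher and 3 lower than in neuroepithelial cells (median 0.32), or 21.1% and 15.8% against 18.1% and 14.6% of all genes. Of 19 in FGF8 astrocytes 4 were higher and 4 lower (median 0.27), or 21.1% each against 12.8% and 10.2%. Between RA and FGF8 astrocytes 3 of 17 were higher and 3 lower (median 0.18), or 17.6% each against 9.69% and 7.86%. LGI1, a secreted protein of the Kv1 complex, had 159 in neuroepithelial cells and was at the floor in both astrocyte cultures, at least 6.05-fold lower. Of 23 pump and cotransporter genes 18 were analysed, with 3 of 10 compared genes higher and 1 lower in RA astrocytes (median 0.06, shares over all genes 18.1% and 14.6%), and 5 of 11 higher and 0 lower in FGF8 astrocytes (median 0.63, shares over all genes 12.8% and 10.2%). Between the astrocyte cultures 2 of 11 were higher and 4 lower (median -0.11, shares over all genes 9.69% and 7.86%). FXYD7, a small modulator of the sodium-potassium pump, had 226 in FGF8 astrocytes and 33.7 in neuroepithelial cells and was at the floor in RA astrocytes, 6.70-fold higher in FGF8 astrocytes. SLC12A7, a potassium-chloride cotransporter, had 73.4 in RA astrocytes, 267 in FGF8 astrocytes and 378 in neuroepithelial cells.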

How the data were processed

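Total RNA from 3 cultures was hybridised to human expression arrays; per the labels' protocols RNA was extracted with Trizol, cleaned on a column, labelled with biotin and processed at a core facility. The deposited values are a linear intensity for each of 54675 probe sets, and how signals were summarised over probes is not stated in the labels. Since array brightness varied (75th percentiles spanned 0.14 in log2), 54613 non-control probe sets were quantile normalized on the linear scale across the 3 arrays, with Python 3.11.15 and pandas 2.3.3. Lower values were raised to the floor, log2 4.72, before taking log2 differences. The probe set with the highest mean log2 signal over the arrays stood for each gene. A probe set bright on 1 array only could thus be passed over, as for KCNK1, KCNE1 and KCNJ9. The cross-hybridising type (_x_at) was used only for a gene with no other. Probe sets were named from the platform annotation; those with several symbols were left out, and gene IDs of all 87 members matched a human RefSeq table (GRCh38.p14). KCN genes without a probe set of 1 symbol were not analysed here.

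The members, lists and alternatives were chosen with earlier results of these data known. Named were genes past 2-fold, up to 5 per class, direction and comparison, and further members where a count needed an example. The planned naming of each class's brightest gene was dropped, since levels of different probe sets cannot be compared. Alternatives tried were no normalization, scaling arrays to one median, a floor at the 30th or the 70th percentile or no floor, averaging a gene's probe sets, leaving out less specific ones, sizes of 1.5-fold and 4-fold, and leaving out members that are no channel subunit. The steps were tested on simulated data in which only genes well above the floor were changed. Changes of genes that lie near the floor were not simulated. No test was possible with 1 array per group.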

Additional observations from a re-analysis of the deposited data

Results flagged for a closer look

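KCNAB2 and KCNJ2 differed from neuroepithelial cells in opposite directions in the 2 astrocyte cultures, by at least 1.5-fold each way. KCNAB2 had a log2 difference of 0.73 in RA astrocytes and -1.32 in FGF8 astrocytes, and KCNJ2 of 0.69 in RA astrocytes and -0.86 in FGF8 astrocytes. With the deposited values the RA differences were 0.46 for KCNAB2 and 0.34 for KCNJ2, both short of 1.5-fold. At the 70th percentile floor KCNAB2 had 0.19 in RA astrocytes and KCNJ2 had no value. The FGF8 values are bounds with FGF8 astrocytes at the floor, both contrasts share the neuroepithelial array, and the difference between them was not tested.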

How the results depend on the processing

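Floor settings, which change which genes can be compared, and the 4-fold size moved the counts most. For RA astrocytes against neuroepithelial cells the 10 higher and 9 lower channel genes became 20 and 18 with the 30th percentile floor, 5 and 1 with the 70th, 28 and 24 without a floor, and 4 and 3 at 4-fold; 5 were lower when probe sets were averaged. For FGF8 astrocytes against neuroepithelial cells the 7 higher and 10 lower became 11 and 21, 3 and 2, 21 and 28, and 4 and 4 under the same settings, and again 5 were lower with averaged probe sets. For RA against FGF8 astrocytes the 9 higher and 2 lower became 17 and 11, 3 and 0, 28 and 20, and 4 and 1, while 0 were lower with averaged probe sets and 1 without less specific probe sets. Medians of RA against neuroepithelial cells were 0.24, 0.28 and 0.32 with the lower, higher and no floor, those of RA against FGF8 astrocytes 0.28, 0.26 and 0.29, and that of FGF8 against neuroepithelial cells was -0.20 with the deposited values. Scaling arrays to one median took the all-gene median from 0.07 to 0.35 for RA and from 0.05 to 0.42 for FGF8 astrocytes against neuroepithelial cells. Of all genes 25.4% were then higher and 10.5% lower in RA astrocytes (18.1% and 14.6% before), and 21.9% higher and 7.02% lower in FGF8 astrocytes (12.8% and 10.2% before), with 10 and 8 and with 8 and 9 channel genes higher and lower. Of 47 differences of named genes past 2-fold, 26 kept their call under each of 7 scaling, floor and probe set alternatives giving a value. No such difference changed sign. A setting that put both arrays at the floor gave no value and did not count against a call. At the 70th percentile floor KCNF1, KCNG1, KCNIP2, KCNJ13 and KCNQ1OT1 had none for RA astrocytes against neuroepithelial cells. Calls against neuroepithelial cells lost with that floor included KCNJ8 (0.40 in RA and 0.79 in FGF8 astrocytes), KCNK10 (-0.79 in each), KCNMA1 (-0.92 in each) and KCNS3 (-0.06 in each). No paired analysis was possible because each group had 1 array.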

Other observations

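Probe sets annotated to several genes were not counted among the channel genes. The probe set shared by GALNT8 and KCNA6 had signals of 81.3 in RA astrocytes, 88.1 in FGF8 astrocytes and 42.2 in neuroepithelial cells, while all 7 KCNA genes with a probe set of their own were at the floor. Of the 3 probe sets shared by KCNJ18 and KCNJ12, 1 passed the floor, with 29.1 in neuroepithelial cells. A second probe set of KCNJ9, a G protein-gated rectifier, had 48.4 in RA astrocytes and was at the floor on the other arrays, although its main probe set was at the floor on all 3.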
